A study of Homo sapiens with 13 samples.

Results

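p300 and its paralogue CBP are histone acetyltransferases that transcription factors bring to DNA, and in MDA-MB-231 cells most of their peaks on the chromosome arms lay inside H3K4me1 regions. The peaks described here are the exceptions. They were selected from the positions in the peak lists as p300/CBP peaks on chromosomes 1 to 22 and X that lay more than 5 Mb from the longest run of unsequenced bases of their chromosome, overlapped no H3K4me1 region by even 1 bp and touched no promoter window, a stretch of 3 kb centred on the canonical start site (TSS) of a protein-coding gene. These criteria held for 1734 of the 9050 p300/CBP peaks of the arms, and of 13984 p300/CBP peaks in all. The study's text counts fewer p300/CBP peaks than this list holds. Which of the 1734 belonged to the set it analysed is therefore unknown. H3K27ac regions covered at least 1 bp of 363 of the 1734 peaks and none of the other 1371. The comparison peaks were the 7148 arm peaks that overlapped H3K4me1 outside promoter windows, of which 5780 carried H3K27ac and 1368 did not.

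MDA-MB-231 is an established cell line from a human triple-negative breast cancer, and every library came from these cells without any treatment or genetic change named in the labels, so the data describe 1 line. The antibodies were directed to H3K4me1, H3K4me3, H3K27ac, RNA polymerase II (Pol II) and CTCF, with 2 libraries each that were merged before peak calling, and to p300/CBP, with 1 library of pooled immunoprecipitations. Each list holds peak positions on hg19 without a height or a count, so depth is unknown and the spread between libraries cannot be measured. The intervals below are 95% Wilson intervals of shares, or Newcombe intervals of differences of shares, and cover counting error only.

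H3K4me1 marks enhancers whether or not they are active, H3K27ac is the product of p300 and CBP and is found at active enhancers and promoters, and H3K4me3 is the mark of active start sites. AP-1, the dimer of FOS and JUN proteins to which Fra-1 belongs, binds the consensus TGA(G/C)TCA and is known to recruit p300/CBP. The AP-1 word searched here, TGANTCA, is looser and also admits A or T as the middle base. CTCF binds at boundaries and loop anchors, and AGGNGGC is part of its motif. The peaks outside H3K4me1 were therefore described by whether the 200 bp around their centre held these words, and by how often each word of 24 bases in that window occurs in the reference (chromosomes 1 to 22 and X, both strands). A window in which at least 1 such word occurs at 2 or more places is called repeated, and one in which every word occurs once is called single copy.

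The sequences below were read from GRCh37, plus strand, over the 100 bp around the peak centre (the last one is placed differently, as said there), and show what the different kinds of peak sit on. The first pair carried H3K27ac and were among the peaks whose AP-1 word, in capitals, lay nearest to the centre, at 0.5 and 1.5 bp from it. Both lay between genes and neither overlapped H3K4me3, Pol II or CTCF.
chrX:23825801-23825900: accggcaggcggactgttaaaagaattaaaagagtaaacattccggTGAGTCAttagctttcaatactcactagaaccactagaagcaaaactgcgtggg
chr9:114629426-114629525: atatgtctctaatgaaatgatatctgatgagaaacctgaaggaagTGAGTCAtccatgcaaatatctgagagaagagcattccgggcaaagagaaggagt

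The next pair are among the peaks without H3K27ac whose AP-1 word, in capitals, lay nearest to the centre. They lay in an intron of NBPF4 and in a gene without a symbol on chromosome 16. Of the 177 words of 24 bases in each window, 153 and 130 occurred more than once in the reference.
chr1:108778101-108778200: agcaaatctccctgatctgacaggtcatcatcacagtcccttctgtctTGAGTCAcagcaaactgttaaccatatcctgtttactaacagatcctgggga
chr16:88272551-88272650: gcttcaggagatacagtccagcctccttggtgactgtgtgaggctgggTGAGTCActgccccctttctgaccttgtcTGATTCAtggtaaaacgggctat

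Of the 39 peaks that overlapped a CTCF peak, 7 held the CTCF word (17.95%, 8.98% to 32.7%), against 123 of the other 1695 (7.26%). The word is in capitals in 2 of those 7, taken from the 3 that held it nearest to the centre. The first lay between genes without H3K27ac, 816.8 kb from the TSS of SLC10A2, and the second in an intron of MBP with H3K27ac and Pol II.
chr13:104535601-104535700: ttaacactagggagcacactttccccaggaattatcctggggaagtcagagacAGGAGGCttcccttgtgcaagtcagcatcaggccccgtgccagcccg
chr18:74767226-74767325: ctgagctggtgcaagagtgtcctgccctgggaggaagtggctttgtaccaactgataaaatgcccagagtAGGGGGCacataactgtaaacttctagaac

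The last 4 show repeated sequence under peaks without H3K27ac. The first, in an intron of SLC35E2B, was among 3 peaks shown by rule for holding the word with most copies, a run of adenines found at 363753 places. The others were chosen after their values were seen. Capitals mark words shared with the mitochondrial chromosome in the peak at chr1:567101-568701. The last pair are 2 windows 5.392 kb apart in an array of such peaks on chromosome 19, in which capitals mark shared words of 24 bases and all 100 bases were identical. The first is centred on its peak, and the second is the matching copy, which overlaps a peak at chr19:48446401-48446551 without being centred on it.
chr1:1613401-1613500: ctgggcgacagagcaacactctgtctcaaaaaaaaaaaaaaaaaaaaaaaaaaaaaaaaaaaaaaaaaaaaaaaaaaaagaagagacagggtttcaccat
chr1:567851-567950: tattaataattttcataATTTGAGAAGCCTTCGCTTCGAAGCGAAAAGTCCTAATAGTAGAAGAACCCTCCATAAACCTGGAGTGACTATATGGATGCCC
chr19:48440976-48441075: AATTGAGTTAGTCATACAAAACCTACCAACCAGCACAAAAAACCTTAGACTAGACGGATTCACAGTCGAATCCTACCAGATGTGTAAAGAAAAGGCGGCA
chr19:48446368-48446467: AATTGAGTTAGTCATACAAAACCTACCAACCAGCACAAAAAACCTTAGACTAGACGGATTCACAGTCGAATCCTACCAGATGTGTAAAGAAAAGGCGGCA

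The peaks outside H3K4me1 with and without H3K27ac differed in H3K4me3, Pol II, the AP-1 word and repeated sequence, and a difference in CTCF was not detected. H3K4me3 was present at 164 of 363 peaks with H3K27ac (45.2%) and at 54 of 1371 without (3.94%), a difference of 41.2 percentage points (95% interval 36.1 to 46.5, Benjamini-Hochberg adjusted p = 8.18e-79, two-sided Fisher's exact test). Pol II was found at 179 (49.3%) and 30 (2.19%), a difference of 47.1 points (41.9 to 52.3, exact test, adjusted p = 2.4e-106). The AP-1 word was found at 184 (50.7%) and 195 (14.2%), a difference of 36.5 points (31.0 to 41.9, exact test, adjusted p = 3.18e-44). Repeated sequence was found under 81 (22.3%) and 1011 (73.7%), and this difference of -51.4 points (-56.0 to -46.3) ran the other way (exact test, adjusted p = 2.04e-71). CTCF peaks overlapped 10 (2.75%) and 29 (2.12%), and this difference of 0.64 points was not past the threshold (-0.91 to 2.97, exact test, adjusted p = 0.431). Over all 9050 p300/CBP peaks of the arms, H3K27ac was present at 69.1%, H3K4me3 at 10.6%, Pol II at 16.9%, CTCF at 1.94%, the AP-1 word at 46.4% and repeated sequence at 32.1%. The p-values treat peaks as independent, which neighbours in an array are not, and they compare sites in 1 p300/CBP library. With only 1 peak kept per 20 kb and class, the AP-1, H3K4me3, Pol II and repeat differences between peaks with and without H3K27ac stayed past the threshold.

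**Figure D1:**
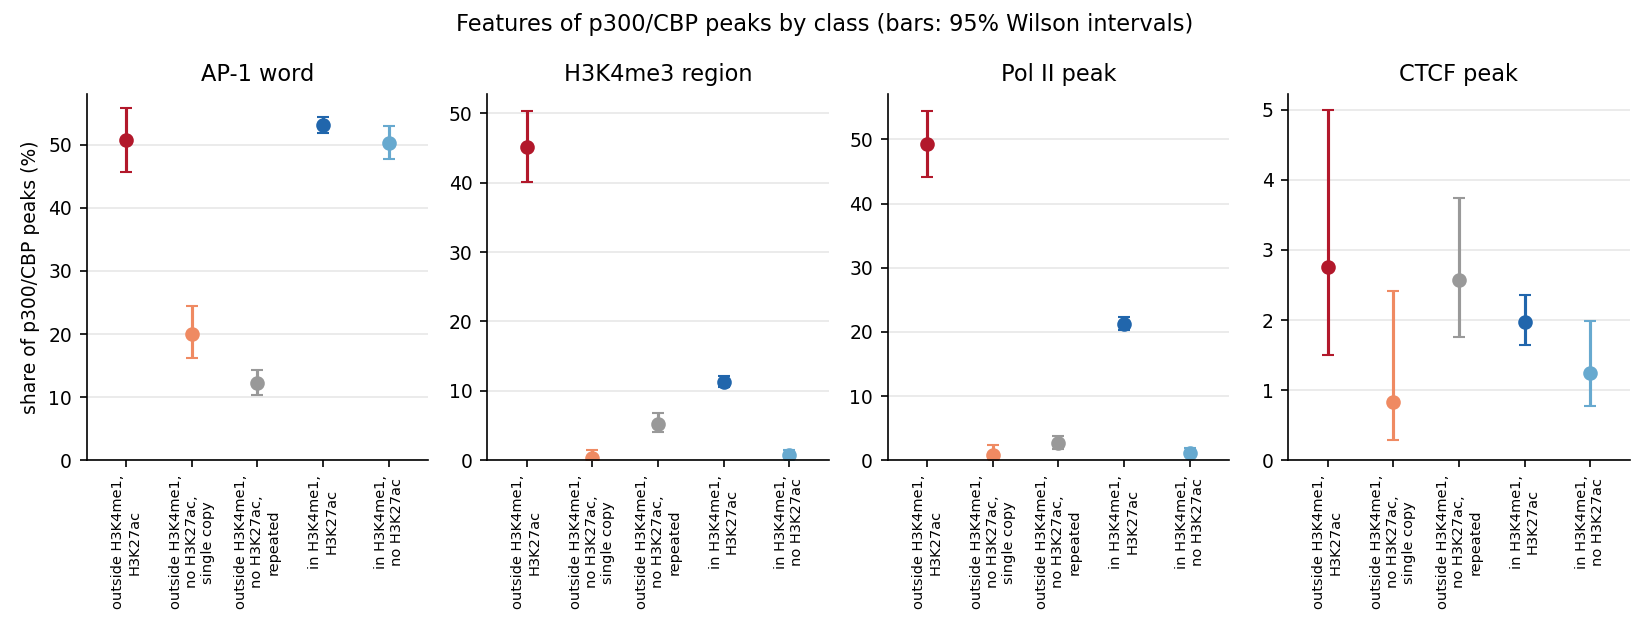
Share of p300/CBP peaks (%, y axis) that held the AP-1 word TGANTCA within 200 bp of sequence or overlapped an H3K4me3 region, a Pol II peak or a CTCF peak, in 5 classes (x axis). Points are shares and bars 95% Wilson intervals. Peaks outside H3K4me1 with H3K27ac reach 50.7% for the AP-1 word and 45.2% for H3K4me3, and the peaks outside H3K4me1 without H3K27ac stay below them in the AP-1, H3K4me3 and Pol II panels.

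Taken as a whole, the peaks outside H3K4me1 held the AP-1 word less often than the comparison peaks, at 21.9% against 52.5% (difference -30.7 points, -32.9 to -28.3, exact test, adjusted p = 1.38e-122). They lay on repeated sequence more often, at 63.0% against 24.5% (38.5 points, 36.0 to 40.9, exact test, adjusted p = 7.44e-195). Those 2 differences kept their direction and stayed past the threshold under every alternative that was run for them. H3K4me3 was found at 12.6% against 9.33% (3.24 points, 1.61 to 5.01, exact test, adjusted p = 0.000102) and Pol II at 12.1% against 17.4% (-5.38 points, -7.08 to -3.55, exact test, adjusted p = 4.17e-08). Neither of those held under every alternative. The odds ratio for H3K4me3 turned from 1.397 to 0.454 when peaks within 1 kb of H3K4me1 were left out, and that for Pol II from 0.649 to 1.21, which was not past the threshold, without peaks on repeated sequence. CTCF overlapped 2.25% against 1.83% (0.42 points, -0.27 to 1.28, exact test, adjusted p = 0.313). The peaks with H3K27ac and the single-copy peaks without it were then set beside the comparison peaks of the same H3K27ac status, as values without a test.

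Most of the 363 peaks with H3K27ac lay close to an H3K4me1 region. Their distance to the nearest H3K4me1 region had a median of 250 bp (quartiles 150 and 450 bp), and 331 (91.2%) had one within 1 kb. H3K4me1 was within 1 kb on both sides of 159 (43.8%) and within 2 kb on both sides of 223 (61.4%). The gap between the flanking regions, measured for 362 peaks, had a median of 1650 bp, with quartiles of 1150 and 5338 bp and a maximum of 1781150 bp. It was never under 1000 bp, since the authors had joined H3K4me1 bins across shorter gaps. These distances describe the selection and were not tested. The H3K27ac region wholly contained 350 of these peaks (96.4%) and in 349 cases (96.1%) also overlapped H3K4me1 elsewhere. Its median width, taken per peak, was 4050 bp, and the median per region over all H3K27ac regions was 1300 bp. These medians are not like for like, since a region with several peaks counts for each of them. Widths were not measured for the H3K27ac regions of the comparison peaks. Only 14 peaks sat in an H3K27ac region free of H3K4me1. They held the AP-1 word in 9 cases, H3K4me3 in 1 and Pol II in none.

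**Figure D2:**
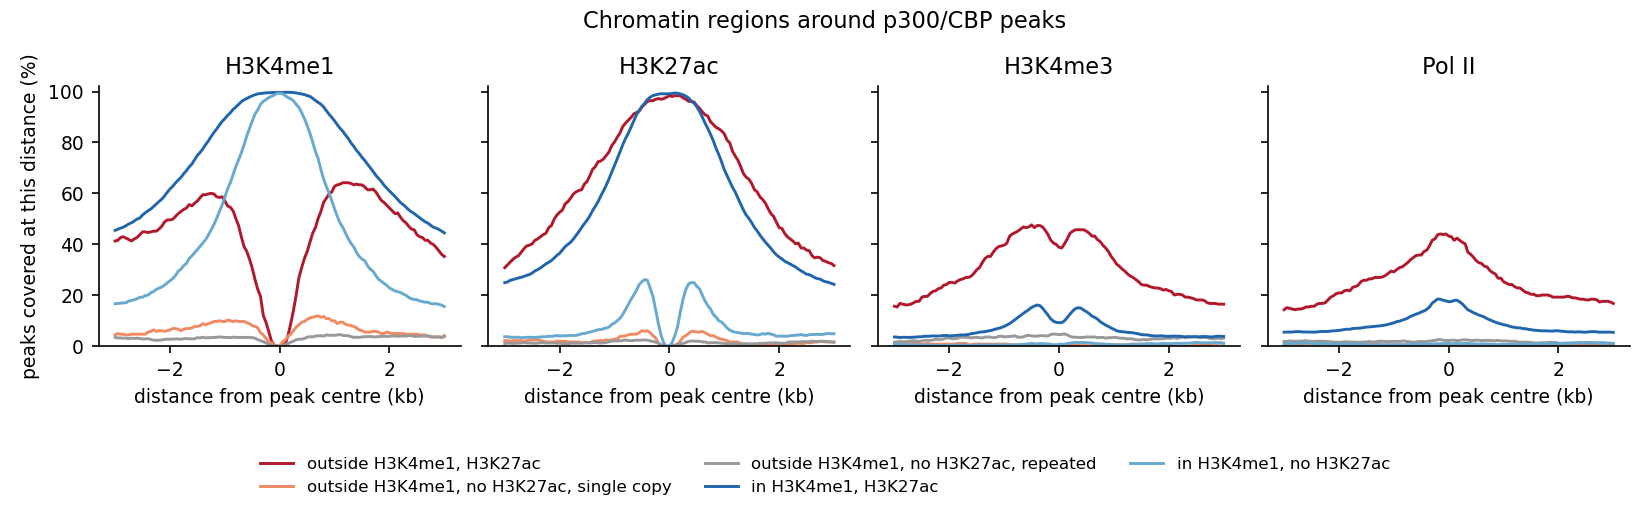
Share of p300/CBP peaks (%, y axis) covered by an H3K4me1, H3K27ac, H3K4me3 or Pol II region at each distance from the peak centre (x axis, kb), in 5 classes. The absence of H3K4me1 at the centre of the peaks outside it is set by the selection, and 1 kb to the right of the centre 62.8% of those with H3K27ac were covered by H3K4me1 and 83.5% by H3K27ac.

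Next to the 5780 comparison peaks with H3K27ac, these 363 peaks differed more in H3K4me3 and Pol II than in sequence words. The AP-1 word was found at 50.7% and 53.04% (difference -2.36 points, -7.64 to 2.91), and repeated sequence at 22.3% and 23.7% (-1.42 points, -5.56 to 3.26). GGAATG, the word bound by TEAD factors, stood at 24.8% and 26.3% (-1.49 points, -5.81 to 3.34), TGTGGTT of RUNX factors at 13.2% and 12.2% (1.03 points, -2.20 to 4.98), TTGCNNAA of C/EBP factors at 16.3% and 15.02% (1.24 points, -2.33 to 5.48) and TGTTTAC of forkhead factors at 9.92% and 7.98% (1.94 points, -0.82 to 5.51). H3K4me3 was found at 45.2% against 11.3% (33.8 points, 28.7 to 39.0) and Pol II at 49.3% against 21.3% (28.0 points, 22.8 to 33.3). The 2 classes also differed in closeness to annotated start sites outside the selection. A 3 kb window around any basic GENCODE TSS touched 19.01% of these 363 peaks and 7.82% of the 5780 comparison peaks. How far this closeness accounts for the H3K4me3 and Pol II differences was not tested. GGGCGG, the GC box of SP and KLF factors, was found at 8.54% against 4.05% (4.49 points, 1.98 to 7.85). All words were searched on both strands, and none contains another, though GGAATG shares GGAAT with satellite DNA. Over all 13203596 windows of 200 bp on the arms, TGANTCA was found in 6.27%, GGAATG in 10.6%, TGTGGTT in 3.83%, TTGCNNAA in 10.8%, TGTTTAC in 3.12%, GGGCGG in 2.90% and AGGNGGC in 9.70%.

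The other 3 words were too rare among the 1734 peaks to compare. TGACGTCA, the cyclic AMP response element, was found at 3, all with H3K27ac, CCGGAAGT of ETS factors at 2 and CACGTG, the E-box, at 35. They were found in 0.0699%, 0.0947% and 1.84% of all windows of the arms.

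The AP-1 word was concentrated at the peak centre. It was found in the 50 bp to the left of the centre of 66 of the 363 peaks with H3K27ac (18.2%) and in the 50 bp to the right of 65 (17.9%). In the bins more than 500 bp from the centre the share ranged from 0.826% to 3.86%, and in the outermost bins it was 0.826% on the left and 1.93% on the right. The comparison peaks with H3K27ac gave 18.1% and 19.6% at the centre and 1.90% and 1.82% in the outermost bins.

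**Figure D3:**
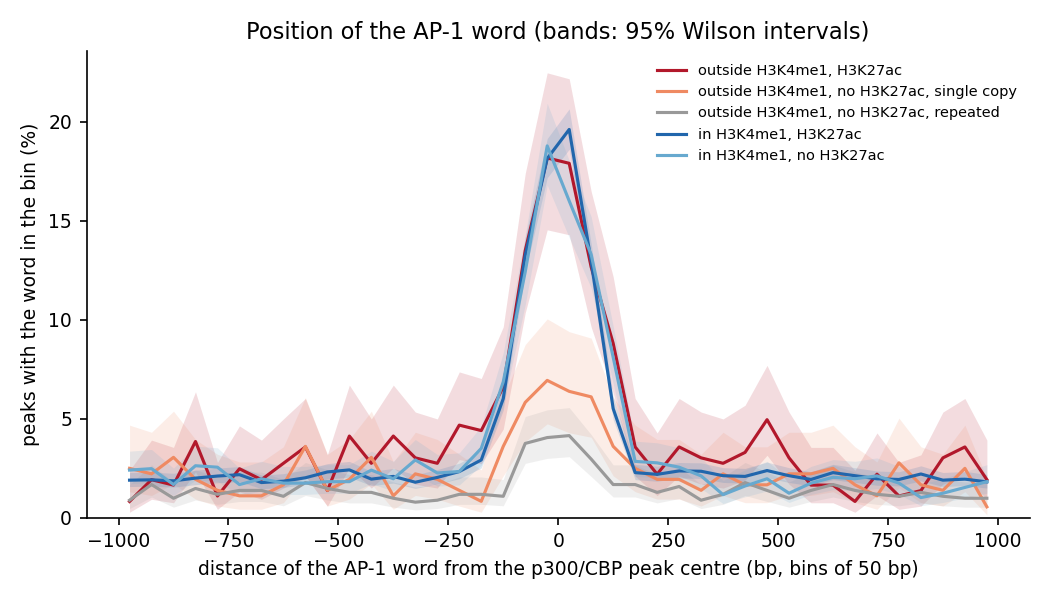
Share of p300/CBP peaks (%, y axis) with an AP-1 word in each bin of 50 bp, by distance from the peak centre (x axis, bp), in 5 classes, with 95% Wilson intervals as bands. Peaks with H3K27ac reach 18.2% outside H3K4me1 and 19.6% inside it. The repeated peaks without H3K27ac reach 4.15% at the centre, against 0.890% and 0.989% in the outermost bins.

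H3K4me3 split the 363 peaks further. Of the 164 with H3K4me3, 133 (81.1%, 74.4% to 86.4%) also had Pol II, and of the 199 without it 46 (23.1%, 17.8% to 29.5%). The promoter windows used for selection were those of protein-coding genes only, and a window of a lncRNA TSS was touched by 41 peaks with H3K4me3 and by 10 without. Any TSS of a basic GENCODE transcript lay within the same distance of 53 (32.3%) and 16 (8.04%). So 111 of the 164 peaks with H3K4me3 were near no annotated TSS of that set. The AP-1 word was found at 74 (45.1%) of the peaks with H3K4me3 and at 110 (55.3%) of those without, with intervals of 37.7% to 52.8% and 48.3% to 62.02% that overlapped.

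The 8 widest peaks with H3K27ac were 600 to 1000 bp wide. The 2 widest, chr17:16767851-16768851 and chr17:16914001-16914901, overlapped CTCF, lay between genes 106.6 kb from the TSS of TNFRSF13B and 30.9 kb from that of MPRIP, and had 149 and 129 of 177 words at 2 places in the reference. Another CTCF overlap was at chr3:151743701-151744451, on single-copy sequence 152.3 kb from the TSS of SUCNR1. The peaks at chr7:130597851-130598601, in LINC-PINT, at chr15:67442451-67443201, in an intron of SMAD3, a mediator of TGF-beta signalling, and at chr10:13923951-13924551, in an intron of FRMD4A, had H3K4me3, Pol II and an AP-1 word. The peak at chr4:177804751-177805451, in LINC02509, had none of them and lay 90.7 kb from the TSS of VEGFC, a lymphatic growth factor. The last of the 8 was on the X chromosome.

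The X chromosome stood apart. Of the 53 distal p300/CBP peaks with H3K27ac on its arms, 30 lay outside H3K4me1 (56.6%, 43.3% to 69.1%), against 333 of 6090 on the autosomes (5.47%, 4.93% to 6.07%). The autosomes ranged from 1.65% on chromosome 20 and 1.65% on chromosome 3 to 15.96% on chromosome 18. The H3K4me1 list itself was sparse on X, with 1104 regions beside 918 H3K27ac regions, or 1.20 per H3K27ac region, where the autosomes together had 2.17 and the lowest of them, chromosome 19, had 1.87. The part of this sparseness in the X result was not tested, and since the absence of H3K4me1 chose the peaks no test was made.

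**Figure D4:**
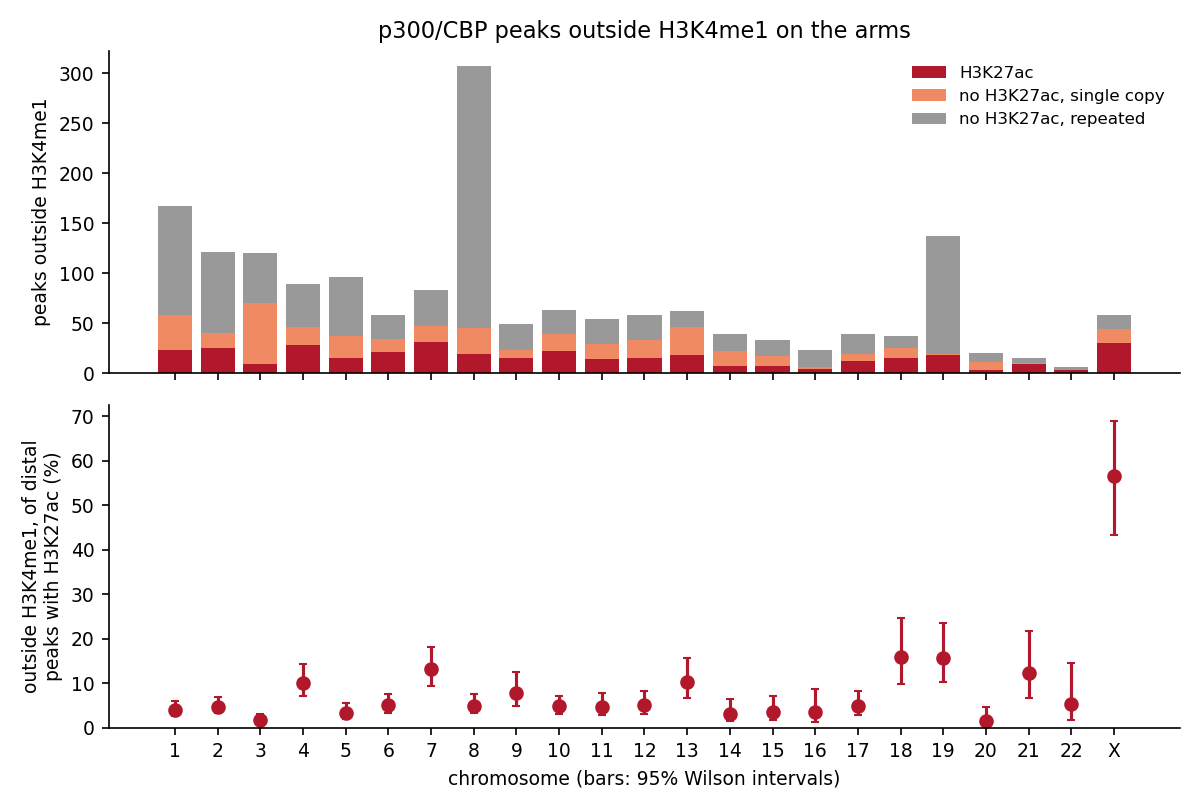
Top, number of p300/CBP peaks outside H3K4me1 on the arms (y axis) per chromosome (x axis), stacked by class. Bottom, the share (%, y axis) of distal p300/CBP peaks with H3K27ac that lay outside H3K4me1, with 95% Wilson intervals, at 56.6% on X and at most 15.96% on any autosome, while chromosome 8 holds the most peaks, 307, of which 262 were repeated and without H3K27ac.

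A run of 10 of the 30 lay between 45 and 46 Mb on X, singled out after its values were seen. Without that megabase, 20 of 43 remained (46.5%, 32.5% to 61.1%). From chrX:45338501 to chrX:45663351, a span of 324.9 kb without a protein-coding gene, the p300/CBP list held 11 peaks, all outside H3K4me1, and 10 of them had H3K27ac. The H3K27ac list held 17 regions there with a total of 69250 bp, and the H3K4me1 list 20 regions with 33750 bp. Pol II overlapped 4 of the 11 peaks, H3K4me3 1 and the AP-1 word 4. The span holds MIR221 (chrX:45605585-45605694) and MIR222 (chrX:45606421-45606530), a pair of microRNA genes known for high levels in aggressive breast cancers, and 6 of the peaks were within 100 kb of MIR221. The peak nearest to them, chrX:45617851-45617951, lay 12.2 kb from MIR221 and 11.3 kb from MIR222 inside their host transcript MIR222HG and was the 1 with H3K4me3. It also had Pol II and an AP-1 word.

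Named genes were then read by distance. Of 19819 protein-coding genes, 1287 (6.49%) had a peak outside H3K4me1 within 100 kb of the canonical TSS, and 435 (2.19%) had one with H3K27ac. The lists below are described by counts only, and comparison peaks were within 100 kb of 24.2% of all protein-coding genes. Among 14 AP-1 and small MAF factors, 3 had a peak outside H3K4me1 and 7 a comparison peak. The one near FOSL1, which encodes Fra-1, was at chr11:65677251-65677601, 9.39 kb upstream, and the one near JUN at chr1:59280901-59281151, 31.2 kb upstream in LINC01135, both with H3K27ac, H3K4me3 and Pol II and without an AP-1 word. That near MAFK was repeated and had no H3K27ac.

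Among 14 YAP/TAZ and TEAD genes and targets, 2 had such a peak and 8 a comparison peak. CCN1, a secreted matrix protein, had 2, the nearest 2.14 kb upstream at chr1:86044151-86044301, and AXL, a receptor tyrosine kinase, had 3, the nearest in its intron at chr19:41729401-41729751 with an AP-1 word. Both nearest peaks had H3K27ac, H3K4me3 and Pol II. Of 13 EMT genes, 2 had such a peak and 8 a comparison peak. VIM, the mesenchymal intermediate filament, had an acetylated one 14.0 kb upstream in VIM-AS1, and ZEB1, a repressor of epithelial genes, a single-copy one without H3K27ac in its intron. None of the 12 luminal breast genes had one, and 4 had a comparison peak. These 12 include ESR1, GATA3 and KRT18.

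Of 16 RAS and MAPK drivers and feedback genes, 4 had a peak outside H3K4me1 with H3K27ac and 8 a comparison peak. The phosphatase gene DUSP4 had one in its intron at chr8:29198801-29199051 with H3K27ac, H3K4me3, Pol II and an AP-1 word, and DUSP5 one 32.3 kb downstream with H3K27ac, H3K4me3 and Pol II. A single peak with H3K27ac in an intron of EREG, at chr4:75240751-75241051, was within 100 kb of both EREG and AREG, which encode EGF receptor ligands, and had neither H3K4me3 nor Pol II. Of 10 enzymes and readers of H3K27ac and H3K4me1, 1 had such a peak, the deacetylase gene HDAC2, 24.6 kb upstream of its canonical TSS but still in an annotated HDAC2 intron, with H3K27ac, H3K4me3 and Pol II, and 5 had a comparison peak. Of the 33 protein-coding genes whose promoters the study had captured by NG Capture-C, 27 (81.8%) had a comparison peak and 3 a peak outside H3K4me1. Those 3 were FOSL1, EMP1 and KRT80, all with H3K27ac and Pol II. RPSAP52 is not protein-coding and was not counted.

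The 360 single-copy peaks without H3K27ac were narrow and seldom overlapped H3K4me3, Pol II or CTCF. Their widths were 100 bp in most cases, with 306 at 100 bp and a maximum of 450 bp. The share at 100 bp was 48.3% among the 1368 comparison peaks without H3K27ac. That comparison class was not limited to single-copy windows, and 379 of its peaks (27.7%) were repeated. H3K4me3 overlapped 1, Pol II 3 and CTCF 3, where the comparison peaks had 11, 16 and 17 of 1368. The shares differed by -0.53 points for H3K4me3 (-1.20 to 0.80), -0.34 for Pol II (-1.24 to 1.31) and -0.41 for CTCF (-1.33 to 1.25). The AP-1 word was found at 72 (16.2% to 24.4%) against 50.3% of comparison peaks, a difference of -30.3 points (-34.9 to -25.1). GGAATG (12.2% against 20.3%), TGTGGTT (8.89% against 16.3%) and TGTTTAC (8.33% against 14.6%) were also below the comparison, with intervals of the difference that left out 0, as was GGGCGG (0 of 360 peaks against 2.12%). For TTGCNNAA (15.8% against 18.9%, -7.13 to 1.48 points) and AGGNGGC (4.17% against 6.94%, -4.97 to 0.09 points) the interval included 0. The GC content of the window had a median of 34.5%, against 41.0% in the comparison peaks.

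The AP-1 word in these single-copy peaks went with distance to H3K4me1. It was found at 38 of the 80 peaks up to 500 bp from an H3K4me1 region (47.5%, 36.9% to 58.3%) and at 34 of the 280 farther away (12.1%, 8.82% to 16.5%). It did not change in order beyond that. The shares were 15.4% of 13 peaks from there up to 1 kb, 11.6% of 43 up to 5 kb, 10.7% of 75 up to 20 kb, 9.47% of 95 up to 100 kb and 18.5% of 54 beyond. The distance was part of the selection, so these are given without a test. The 8 widest, chosen after their values were seen, were 300 to 450 bp wide, and 3 of them were on X. Of the 8, 6 held the AP-1 word, among them chr13:83201401-83201751, which lay 256400 bp from H3K4me1 and 1255 kb from the TSS of SLITRK1.

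The remaining 1011 peaks without H3K27ac were on repeated sequence, and they made up 58.3% of all 1734. In 739 of them (73.1%) most of the 24-base words occurred more than once. All 1011 held a repeated word by definition, so this share has no like share among the comparison peaks. Over all peaks without H3K27ac it was 739 of 1371 outside H3K4me1 (53.9%) and 57 of 1368 comparison peaks (4.17%). The most repeated word of the window occurred at a median of 48 places, at 10 or more in 756 peaks (74.8%) and at 1000 or more in 310 (30.7%). The AP-1 word was found at 123 (12.2%, 10.3% to 14.3%), against 6.27% of all windows of the arms. H3K4me3 overlapped 53 (5.24%), Pol II 27 (2.67%) and CTCF 26 (2.57%). All but 1 of the 54 peaks with H3K4me3 and without H3K27ac were thus repeated. The authors had kept uniquely mapped reads, and what mapping did at these sites was not tested, since the reads and the input libraries were not analysed here.

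**Figure D5:**
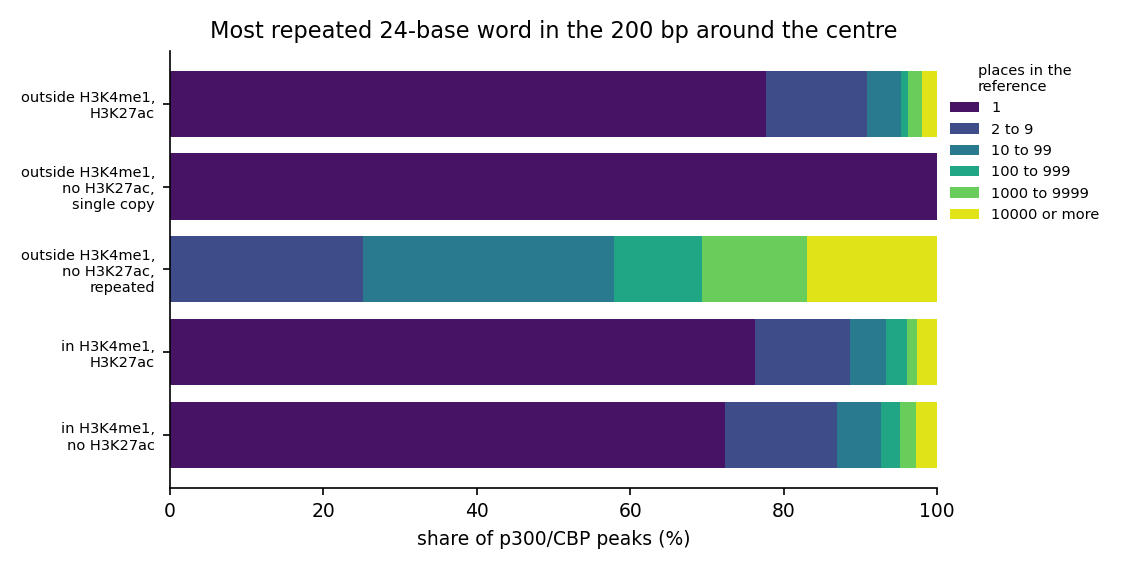
Share of p300/CBP peaks (%, x axis) in 5 classes (y axis) by the number of places in the reference that hold the most repeated 24-base word of the 200 bp around the centre. The single-copy and repeated classes are defined by this number, and among the others 77.7% outside H3K4me1 with H3K27ac and 76.3% inside it have only words found once.

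Many repeated peaks had copies of their sequence nearby. In 561 of the 1011 (55.5%) most of the words recurred within 1 Mb. At least 1 word was shared with a p300/CBP peak within 5 Mb of the longest unsequenced run in 243 (24.04%), with the mitochondrial chromosome in 49 (4.85%), and at least 4 telomere units stood in 21 (2.08%), while 250 (24.7%) were of none of these kinds. Over all 9050 arm peaks these 4 shares were 7.20%, 5.01%, 0.553% and 0.232%. Among the 7148 comparison peaks, recurrence within 1 Mb was found at 0.686% and a word shared with a peak near the unsequenced run at 2.76%. Both of these kinds require a repeated word, which all 1011 held by definition. The 5 megabases with most peaks held 379 of all 1734 (21.9%), nearly all of them repeated. Stretches in which at least 4 peaks outside H3K4me1 followed each other within 20 kb numbered 23 and held 482 peaks. In only 3 of them, with 14 peaks, did H3K27ac mark most of the peaks.

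The densest megabase, 86 to 87 Mb of chromosome 8, held 231 peaks from chr8:86557701 to chr8:86838901. All 231 recurred within 1 Mb, none had H3K27ac or Pol II, 13 had H3K4me3, 1 CTCF and 5 the AP-1 word. They fell in 2 stretches, of 198 and 33 peaks, and the smaller one spans REXO1L1, the annotated copy of a tandemly repeated exonuclease-like gene. On chromosome 19, 54 peaks lay at 48 Mb, of which 52 formed a stretch from chr19:48407601 to chr19:48461901, and 32 at 50 Mb and 28 at 8 Mb. The printed pair of identical windows comes from the stretch of 52, and within 1 Mb 52, 32 and 27 of the peaks in these 3 megabases recurred. CTCF overlapped 6 peaks at 48 Mb and 2 at 50 Mb.

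Chromosome 2 held 34 peaks at 132 Mb, in a different setting. Only 10 recurred within 1 Mb, but 33 shared a word with the peaks near the unsequenced run, 5 had H3K4me3 and 3 Pol II. The stretch of 32 there lies in ANKRD30BL. Smaller stretches held 13 and 8 peaks on chromosome 1, at chr1:149009551-149035751 and chr1:148837901-148850301, and 9 on chromosome 5 across TAF11L7, TAF11L8 and TAF11L9, where 5 held the AP-1 word. None of these 3 had H3K27ac. By nearest TSS within 100 kb, ANKRD30BL (32 peaks), IZUMO2 (31), SULT2A1 (30), BSPH1 (22), OR2Z1 (21), PCBD2 (11), RNF141 and TIMM22 (7 each), ZNF558 (6) and FRG2 (5) had most. MSH3, OR4F16, TAF11L7 and TUBD1 tied with FRG2 at 5, and all 5 peaks of TUBD1 had H3K27ac.

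In all, 50 peaks, 49 of them repeated, shared 24-base words with the mitochondrial chromosome. They include 11 in 4.65 kb inside PCBD2 (chr5:134259451-134264101), 7 in 2.40 kb on chromosome 11 near RNF141 (chr11:10529401-10531801) and 5 in 5.85 kb at the start of chromosome 1 (chr1:564451-570301), where the annotation lists pseudogenes of mitochondrial genes such as MTCO1P12. None of the 7148 comparison peaks held such a word. Pol II overlapped 3 of the 11 and 2 of the 5. The lists themselves gave the mitochondrial chromosome a p300/CBP peak of 16600 bp and a Pol II peak of 16700 bp, and no peak of the 3 histone marks or CTCF. Of the 21 peaks with telomere units, 13 lay within 20 kb of a chromosome end, and the widest of all 1734 peaks, at 1800 bp, was one of them. None of the comparison peaks held 4 units. The peaks at chr1:567101-568701, chr1:568751-570301, chr1:564451-565401 and chr1:566051-566951 were among the 8 widest without H3K27ac, and the other 3 of those 8 were in the array on chromosome 8.

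The limits of the selection fell as follows, without a test. Of the 1734 peaks, 33 abutted an H3K4me1 region and 43 lay 50 bp from one, and just inside it 28 arm peaks shared only 50 bp with H3K4me1. Of the arm peaks outside H3K4me1, 99 touched a promoter window and were left out, while 22 peaks were kept at up to 500 bp from one. At the boundary of 5 Mb, 12 peaks lay between 5 and 6 Mb from the unsequenced run and 159 otherwise alike between 4 and 5 Mb.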

How the data were processed

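The 13 libraries were ChIP-seq of MDA-MB-231 cells, 2 per antibody and for input, and 1 for p300/CBP. The authors aligned reads to hg19 (BWA in the study's methods, Bowtie2 in the submitters' processing notes), kept uniquely mapped reads in bins of 50 bp, merged replicates and called peaks by a threshold with a minimum run and a maximum gap. For p300/CBP these were 60, 50 bp and 50 bp, and for H3K4me1 30, 250 bp and 1000 bp. The deposited lists hold peak positions, with no score, count or depth per peak. By their names, those of p300/CBP and the histone marks came from background-subtracted signal, which the names of the Pol II and CTCF lists do not state. The CTCF list is also not named as scaled. Input was not analysed here.

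Peaks were intersected (1 bp or more) and compared with GRCh37 sequence and GENCODE release 44 in Python 3.11.15 with NumPy 2.4.6, SciPy 1.17.1, pandas 2.3.3, statsmodels 0.14.6 and Numba 0.67.0, and plotted with matplotlib 3.10.9. Promoter windows used 19894 canonical TSSs. The 10 comparisons used two-sided Fisher's exact tests with Benjamini-Hochberg adjustment over all 10 and a threshold of 0.05. The code was checked on simulated data. The peaks, words, tests and gene lists were chosen with earlier results of these data known. Regions named are the 8 widest with and without H3K27ac, and the 5 megabases and 10 stretches with most peaks. Also named are the 10 genes most often nearest within 100 kb, those tied with the last, and the nearest peak within 100 kb of each listed gene. Any other region is said to be chosen after its values were seen. Alternatives changed overlap, distance limits, TSS set, joining, width, word length, window and repeats. Some genes and sequences that these rules select are not reported here.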

Additional observations from a re-analysis of the deposited data

How the results depend on the processing

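No paired analysis was possible because both libraries of an antibody entered 1 merged peak list, and no replicate could be left out for the same reason. Of 122 alternative values over 12 results, 103 were counted as unchanged, as were both AP-1 and both repeat comparisons under each alternative run for them. For the tests this meant the same direction and side of the threshold, and for the number and share of peaks a value within the spread used. That spread was wide for the number of peaks, since 1157 peaks, with 1 per 20 kb and class, counted as unchanged from 1734. The share of peaks outside H3K4me1 with H3K27ac (20.9%) became 2.73% at 1 kb or more from H3K4me1, 23.35% with peaks under 500 bp apart joined, 38.3% with only peaks of the median width or more and 43.9% without repeated sequence, and the last 2 left 661 and 642 peaks. The 2 alternatives added after the data were seen gave 24.15% without the densest megabase and 25.9% with 1 peak per 20 kb and class. Against the comparison peaks, the odds ratio for H3K4me3 fell to 0.454 at 1 kb or more from H3K4me1 and to 1.19, not past the threshold, with all basic TSS windows. That for Pol II became 1.15 with wide peaks, 1.21 without repeated sequence and 0.871 with 1 peak per 20 kb, none of them past the threshold. That for CTCF became 0.636 without repeated sequence, 0.970 with 1 peak per 20 kb and 1.47, past the threshold, with a Mantel-Haenszel estimate over width quartiles. For CTCF with against without H3K27ac it became 0.422 with 50% of the peak covered, 0 at 1 kb or more from H3K4me1 and 0.976 over width quartiles. None of these CTCF values but 1.47 was past the threshold. The causes were not tested. Without depth or heights, absence from a list is absence above the authors' threshold only.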
